A study of Mus musculus with 9 samples.

Results

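Loss of C2TA was examined across 2 kinds of animal at once, by setting all 6 arrays with reduced C2TA against the 3 wild type arrays. C2TA, whose gene carries the symbol Ciita, is the class II transactivator. The cells were medullary thymic epithelial cells with CD80 on their surface, sorted from the thymus of female Balb/c mice aged 4 to 6 weeks. The reduced side held 3 samples labelled C2TA knockdown (numbered 4 to 6) and 3 labelled C2TA knock-out (numbered 7 to 9), and the other side held the 3 samples labelled C2TA wild type (numbered 1 to 3), so all 9 arrays of the study were used. The 2 reduced groups were given equal weight. The labels do not say what drives the knockdown, which cells it reaches or which part of the gene the knock-out removes. They call the samples biological replicates without saying how many mice stand behind each, so the p-values speak only of the spread seen among the samples, which may be technical in part. Values are log2 signals after robust multi-array averaging (RMA), and a difference of 1 on this scale is a change by a factor of 2.

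C2TA does not bind DNA itself. It is recruited by the regulatory factor X complex (RFX), the nuclear factor Y complex (NF-Y) and CREB, which sit on a conserved run of elements named X1, X2 and Y in front of the MHC class II genes. Class II molecules are pairs of an alpha and a beta chain that are assembled on the invariant chain, loaded with peptide in late endosomes with the help of H2-DM, and shown to CD4 T cells. In the thymic medulla, epithelial cells that express Aire make many proteins of other tissues, and their class II molecules present peptides to developing CD4 T cells.

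The promoters of 4 of the genes described below are shown first, because C2TA acts at the X and Y elements of class II promoters. They run from 250 bases before to 50 bases after the annotated start and come from RefSeq, assembly GRCm38.p6, which is built from another mouse strain than Balb/c. Of 15 genes looked for, 9 had an entry in the table used. Capitals mark ATTGG, the core of the Y element that NF-Y binds (CCAAT on the other strand), and AGCAAC, the core of the X1 element that RFX binds. Both were searched on both strands and have no overlap with each other in these windows.
H2-Aa (chr17:34287774-34288073, minus strand): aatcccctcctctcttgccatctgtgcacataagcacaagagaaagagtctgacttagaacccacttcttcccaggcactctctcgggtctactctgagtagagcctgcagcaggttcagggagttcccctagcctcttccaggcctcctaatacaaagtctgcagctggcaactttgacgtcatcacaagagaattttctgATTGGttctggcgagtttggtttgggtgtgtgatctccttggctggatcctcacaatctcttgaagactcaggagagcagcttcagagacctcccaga
H2-Eb1 (chr17:34305617-34305916, plus strand): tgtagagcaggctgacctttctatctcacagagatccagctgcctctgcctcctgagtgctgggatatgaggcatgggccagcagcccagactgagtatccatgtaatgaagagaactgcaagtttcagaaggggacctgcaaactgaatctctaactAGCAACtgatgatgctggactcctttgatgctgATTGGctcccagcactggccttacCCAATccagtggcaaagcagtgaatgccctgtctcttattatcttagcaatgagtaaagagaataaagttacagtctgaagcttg
H2-Oa (chr17:34092129-34092428, plus strand): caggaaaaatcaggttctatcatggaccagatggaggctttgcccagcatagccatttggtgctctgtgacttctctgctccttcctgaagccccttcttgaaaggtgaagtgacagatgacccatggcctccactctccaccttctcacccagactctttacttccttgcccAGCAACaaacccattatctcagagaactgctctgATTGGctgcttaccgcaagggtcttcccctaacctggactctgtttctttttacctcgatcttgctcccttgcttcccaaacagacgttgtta
H2-DMb2 (chr17:34144999-34145298, plus strand): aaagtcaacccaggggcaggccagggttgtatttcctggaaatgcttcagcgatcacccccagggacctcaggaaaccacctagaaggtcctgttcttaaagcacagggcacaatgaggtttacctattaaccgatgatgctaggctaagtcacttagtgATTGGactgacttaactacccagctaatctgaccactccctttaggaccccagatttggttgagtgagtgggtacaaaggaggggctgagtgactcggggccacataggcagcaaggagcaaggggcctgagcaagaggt
In H2-Eb1 the X1 letters began 92 bases and the Y letters 59 bases before the start, with 27 bases between them. In H2-Oa they began 77 and 43 bases before it, with 28 bases between. H2-Aa held the Y letters 48 bases and H2-DMb2 90 bases before the start, and the exact AGCAAC string was in neither window. Such short strings are common. Of all 32851 windows of this length in the table, 37.4% held ATTGG, 14.8% held AGCAAC and 5.84% held both, so a match is a description of letters and not a site. H2-DMa has 2 listed starts, and ATTGG was found in 1 of the windows, 198 bases before the start. Outside class II, the window of Rdh9 held ATTGG on the other strand, and those of Krt79, Pfkl and Apod held neither string.

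The 9 arrays had like medians, between 4.48 and 4.54 log2 over all named genes, with 1 probe set each. Their spread differed. The interquartile range was 2.20 on wild type 1 and 2.37 on knock-out 7, against 2.53 to 2.80 on the other 7 arrays. On wild type 1 the genes of oxidative phosphorylation had a median of -0.73 relative to their own means over all arrays. Leaving it out raised the number of genes moved in both reduced groups from 11 to 21, and leaving out knock-out 7 as well gave 18. Of the markers of medullary epithelium, Epcam lay between 8.69 and 9.36 on all arrays, Krt8 between 9.77 and 10.6, Cldn4 between 8.56 and 9.39 and Cd80, the surface protein named in the sort, between 6.99 and 8.08. Markers of B cells (Cd79a from 2.92 to 3.52, Ighm from 3.23 to 3.36) and the dendritic cell integrin Itgax (3.03 to 4.04) lay below the array medians. Other markers of other cells lay above those medians on all arrays. They were Cd3e (4.70 to 6.14), Cd8a (5.49 to 7.13), Lck (5.23 to 6.44) and Rag1 (4.75 to 6.78) of thymocytes, Lyz2 (8.20 to 8.67), Csf1r (4.89 to 5.55) and Sirpa (5.34 to 6.22) of myeloid cells, and the stromal collagens Col1a1 (6.17 to 6.39) and Col3a1 (4.81 to 5.12). Of the 30 markers examined, 0 passed the pooled test of limma at an adjusted p of 0.05, which 0.0612% of all genes passed. With so small a share, the 0 says little about the mix of cells. Over all genes, 4.02% had an unadjusted p below 0.05 (2.05% higher and 1.97% lower). With 3 arrays a group, the number of arrays sets the precision of each difference.

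In the main fit few genes were counted as moved in both groups, and most of those belonged to the class II pathway. Under several other settings, given below, more genes were counted and class II genes were the minority. In the pooled contrast, 12 of 19593 genes passed an adjusted p of 0.05 (limma, Benjamini-Hochberg over all genes), which is 0.0612%. Of these, 8 were lower (0.0408%) and 4 higher (0.0204%) with less C2TA. A gene was counted as moved in both groups when it passed this test and also differed from wild type in the same direction in the knockdown and in the knock-out, each at an unadjusted p of 0.05. That held for 11 genes (0.0561%), of which 8 fell (0.0408%) and 3 rose (0.0153%). Of the genes that fell, 7 were of the class II pathway, namely H2-Ea, H2-DMb2, H2-Aa, H2-Ab1, H2-Oa, Cd74 and H2-DMa, and the 3 that rose were Pfkl, Krt6b and Krt79. Both single contrasts use the same 3 wild type arrays, so the second condition filters on the size in each group and is not a second test. Over all genes the median pooled difference was 0.01, and 70.2% of genes had the same sign in both contrasts. In bulk samples, fewer cells that express a gene and less RNA per cell cannot be told apart.

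**Figure D1:**
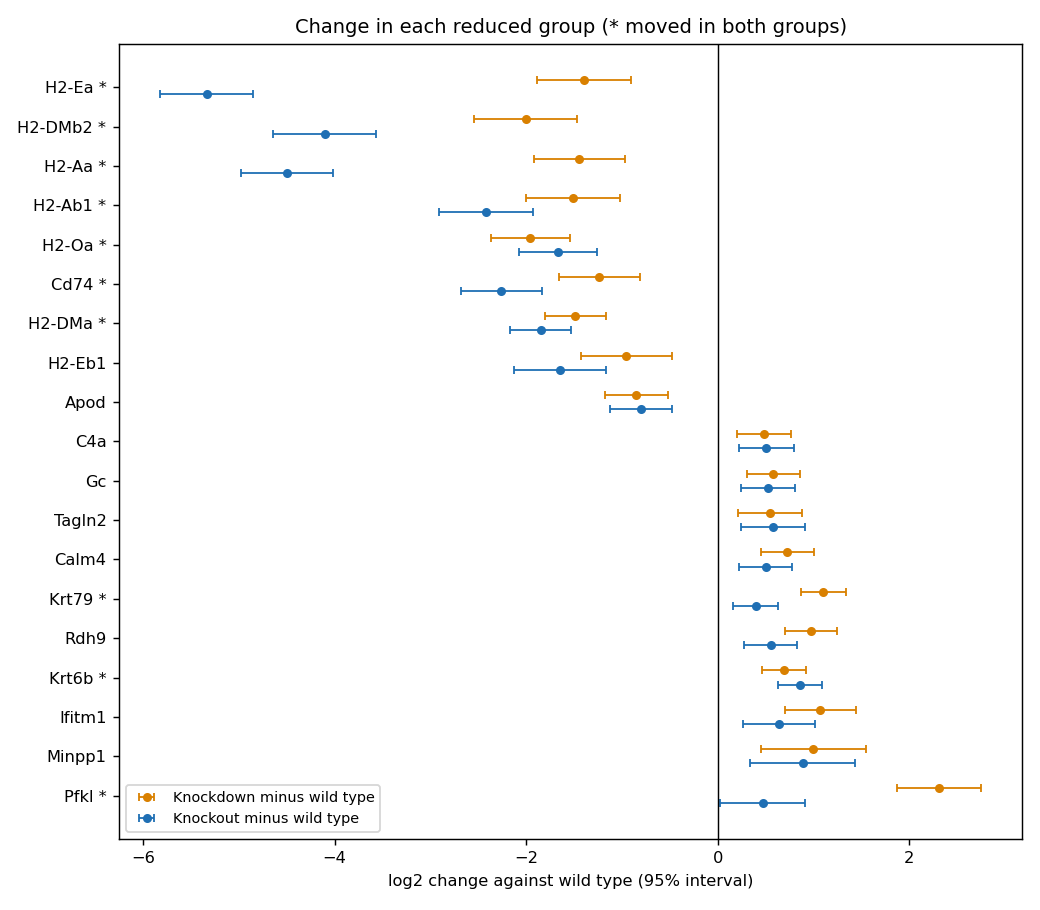
Difference from wild type (log2, x axis) in the knockdown and in the knock-out for class II and other genes named by their size in both groups, with bars for the 95% confidence interval and asterisks for genes moved in both. Farthest to the left are knock-out values, -5.34 for H2-Ea, -4.50 for H2-Aa and -4.10 for H2-DMb2.

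The classical class II chains fell in both reduced groups, 3 of the 4 measured past the test. H2-Ea, the alpha chain of I-E, had log2 signals of 10.27, 11.23 and 11.06 in wild type, 9.41, 9.41 and 9.57 in the knockdown and 5.42, 5.64 and 5.50 in the knock-out. The 3 groups did not overlap, and the knock-out arrays were the lowest. The pooled difference was -3.37 (SE 0.19, 95% confidence interval -3.79 to -2.94), a 10.3-fold lower geometric mean, with an adjusted p of 0.00022. It was made of -1.40 in the knockdown and -5.34 in the knock-out.

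H2-Aa, the alpha chain of I-A, read 10.12, 10.99 and 10.75 in wild type, 9.17, 9.06 and 9.30 in the knockdown and 5.88, 6.20 and 6.29 in the knock-out. All knockdown arrays lay below wild type and all knock-out arrays below the knockdown. In the pooled contrast it fell by 2.97 (SE 0.18), 7.84-fold lower with an adjusted p of 0.000283, and the single differences were -1.44 and -4.50. Its partner, the beta chain gene H2-Ab1, went from 9.84, 10.57 and 10.19 in wild type to 8.75, 8.48 and 8.84 in the knockdown and 7.46, 7.73 and 8.16 in the knock-out. Again no array of one group reached into another. It fell by 1.96 in the pooled contrast (SE 0.19, 3.90-fold, adjusted p = 0.00429), with -1.51 in the knockdown and -2.42 in the knock-out. H2-Ab1 no longer passed the pooled test without wild type 3, or when both reduced groups were fitted as 1 group. Its highest adjusted p over all settings was 0.219. Fitted as 1 group, H2-Ea and H2-Aa (adjusted p = 0.966) and H2-DMb2 and Cd74 (adjusted p = 0.627) did not pass limma's test either.

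H2-Eb1, the beta chain of I-E, missed the threshold. Its wild type signals were 10.15, 11.09 and 10.89, and the 3 knockdown arrays shared the value 9.75. The knock-out arrays read 8.96, 8.97 and 9.25. Values shared between arrays occurred in 12345 of the 19593 genes, and here the knockdown SD was 0. All 6 reduced arrays lay below all wild type arrays. The pooled difference was -1.30 (SE 0.18, interval -1.71 to -0.89) with an adjusted p of 0.0570, and without wild type 1 it was -1.58 with an adjusted p of 0.00072. H2-Eb2 was not analysed here.

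**Figure D2:**
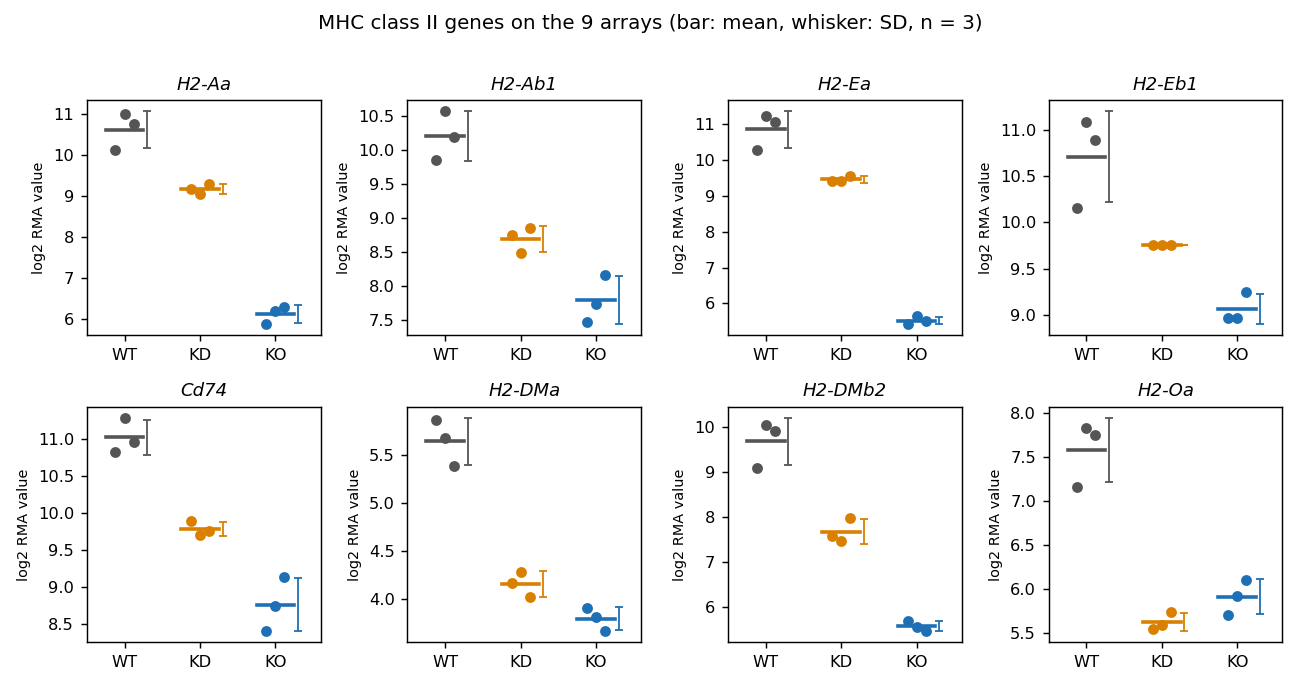
Log2 signal (y axis) of the 8 measured class II genes on each array, with 1 point per array, bars for the group means and whiskers for the SD (n = 3; WT wild type, KD knockdown, KO knock-out). All 6 reduced arrays lie below all 3 wild type arrays for each of the 8 genes, and each panel has its own scale.

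The genes that serve class II assembly and loading fell as well, all 4 of those measured. Cd74 encodes the invariant chain, which fills the groove of new class II molecules and guides them to endosomes. Its signals were 10.83, 11.29 and 10.96 in wild type, 9.90, 9.71 and 9.76 in the knockdown and 8.42, 8.75 and 9.13 in the knock-out. The groups were again stepped and apart, and the pooled difference was -1.75 (SE 0.16, 3.36-fold, adjusted p = 0.0032), from -1.24 and -2.26.

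H2-DMa and H2-DMb2 encode the chains of H2-DM, which takes the invariant chain fragment out of the groove so that other peptides can bind. H2-DMb2 read 9.09, 10.05 and 9.90 in wild type, 7.57, 7.47 and 7.99 in the knockdown and 5.69, 5.56 and 5.47 in the knock-out. Pooled over both groups it fell by 3.05 (SE 0.21, 8.30-fold, adjusted p = 0.000445), with -2.00 in the knockdown and -4.10 in the knock-out. H2-DMb1, a near-identical neighbour gene, was not analysed here, so signal from both genes may be read by this probe set.

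H2-DMa was the dimmest of the class II probe sets, with 5.87, 5.68 and 5.38 in wild type, 4.16, 4.29 and 4.02 in the knockdown and 3.91, 3.82 and 3.67 in the knock-out. The reduced arrays lay below the medians of all named genes on their arrays. H2-DMa fell by 1.67 (SE 0.12, 3.18-fold, adjusted p = 0.000777), from -1.49 and -1.85. RMA can compress the differences of dim probe sets.

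H2-Oa encodes the alpha chain of H2-O, an inhibitor of H2-DM. It went from 7.16, 7.83 and 7.74 in wild type to 5.54, 5.58 and 5.73 in the knockdown and 5.70, 5.92 and 6.10 in the knock-out. It was the only 1 of the 8 measured class II genes whose knockdown mean was below its knock-out mean, and the arrays of the reduced groups overlapped. H2-Oa fell by 1.81 (SE 0.16, 3.51-fold, adjusted p = 0.00264), from -1.96 and -1.67. H2-Ob was not analysed here. H2-Oa and H2-DMa passed the pooled test in each fit that included them, whichever array was left out.

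Over the 8 class II genes measured of the 11 listed, 8 were lower in both groups and 7 moved in both. Their median pooled difference was -1.89, against 0.01 over all genes, with -1.47 in the knockdown and -2.34 in the knock-out. All 6 reduced arrays lay below all wild type arrays for 8 of the 8, which was so for 0.857% of all genes. Dendritic cells, macrophages and B cells also carry class II. Of 24 measured genes of dendritic cells and macrophages, 14 were lower and 10 higher, 0 passed the pooled limma test, and the median was -0.06. The median level of that list, centred per gene over all arrays, ranged from -0.02 to 0.01 in wild type. It ranged from -0.23 to -0.07 in the knockdown and from -0.13 to 0.29 in the knock-out. Of 13 B cell genes, 8 were lower and 5 higher, with a median of -0.03. The part of such cells in the class II values was not tested.

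The size of the fall differed between the reduced groups for some of these genes. The knockdown and knock-out were compared directly in the same fit, and over all genes 8 differed at an adjusted p of 0.05, or 0.0408%. Among the 11 moved in both groups, 4 did. H2-Ea was 3.94 higher in the knockdown (SE 0.22, 15.4-fold, adjusted p = 0.000193), H2-Aa 3.05 higher (SE 0.21, adjusted p = 0.00055) and H2-DMb2 2.10 higher (SE 0.24, adjusted p = 0.0172). Pfkl was 1.84 higher in the knockdown (SE 0.20, adjusted p = 0.0131), the group in which its rise over wild type was the larger. The other 7 did not pass. Knockdown minus knock-out was 1.02 for Cd74 (95% interval 0.60 to 1.44), 0.91 for H2-Ab1 (0.41 to 1.40), 0.36 for H2-DMa (0.04 to 0.68) and -0.29 for H2-Oa (-0.70 to 0.12), and the intervals of Cd74, H2-Ab1 and H2-DMa did not hold 0. It was -0.16 for Krt6b (-0.39 to 0.07) and 0.71 for Krt79 (0.47 to 0.94). The count of 4 went to 2 without knockdown 4, 5 or 6 or without knock-out 8 or 9.

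Ciita itself was lower on all 6 reduced arrays than on any wild type array, as were 0.857% of all genes, but did not pass the pooled test. Its signals were 6.37, 6.55 and 6.28 in wild type, 5.44, 4.94 and 5.50 in the knockdown and 5.96, 6.16 and 6.11 in the knock-out. The knockdown arrays were the lowest and the knock-out arrays lay between. The pooled difference was -0.72 (SE 0.14, interval -1.02 to -0.41, adjusted p = 0.336), with -1.11 in the knockdown and -0.33 in the knock-out. Whether its probes fall in the part that the knock-out removes is not known, and if they do not, the knock-out values check nothing.

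Of the 12 measured genes of C2TA and the factors it works with, 0 passed the pooled limma test, 4 were lower and 8 higher, and the median was 0.04. Rfx5, the DNA-binding subunit of RFX, was the other 1 of the 12 whose reduced arrays all lay below wild type, at 5.40, 5.35 and 5.51 in the knockdown and 4.98, 5.48 and 5.51 in the knock-out against 5.62, 5.93 and 5.86. All reduced arrays lay below wild type for 0.857% of all genes. The pooled difference of Rfx5 was -0.43 (SE 0.14) with an adjusted p of 0.974. The other RFX subunits Rfxank and Rfxap differed by 0.23 and 0.04, and the NF-Y subunits Nfya, Nfyb and Nfyc by 0.06, 0.25 and -0.03. Among 7 other genes reported to be bound by C2TA, 0 passed. The lowest p was that of Btn2a2, a butyrophilin that dampens T cell activation, with a pooled difference of -0.56 (SE 0.16, adjusted p = 0.841), at dim signals between 2.03 and 3.05.

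Outside the class II pathway, 3 genes rose in both groups. Krt6b is a keratin that stressed epithelium makes. Its signals were 4.51, 4.55 and 4.55 in wild type, 5.21, 5.29 and 5.20 in the knockdown and 5.52, 5.27 and 5.41 in the knock-out. All reduced arrays lay above wild type and the reduced groups overlapped. Krt6b rose by 0.78 (SE 0.09, 1.72-fold, adjusted p = 0.0151), from 0.70 and 0.86. Krt6a, its near-identical neighbour, has a probe set of its own, with a pooled difference of 0.20 (adjusted p = 0.974), and how far the probes tell the pair apart was not tested.

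Krt79, another keratin of the type II cluster on chromosome 15, went from 6.98, 7.27 and 7.16 in wild type to 8.26, 8.19 and 8.28 in the knockdown and 7.53, 7.53 and 7.54 in the knock-out. Its groups were apart, with the knockdown highest. Krt79 rose by 0.75 (SE 0.09, 1.68-fold, adjusted p = 0.0215), from 1.10 and 0.40. Pfkl encodes the liver form of phosphofructokinase, an enzyme of glycolysis. It read 5.18, 5.94 and 5.71 in wild type, 7.92, 7.98 and 7.87 in the knockdown and 5.92, 6.38 and 5.93 in the knock-out. The knock-out arrays overlapped wild type, and Pfkl was the only 1 of the 11 genes whose reduced arrays were not all on one side of wild type. Its pooled rise was 1.39 (SE 0.17, 2.62-fold, adjusted p = 0.0215), made of 2.31 in the knockdown and 0.47 in the knock-out, where the unadjusted p was 0.0398.

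When each of the 9 arrays was left out in turn, Krt6b was still counted as moved in both groups 3 times, and Krt79 and Pfkl 1 time each. The class II genes H2-Ea, H2-Aa, H2-DMb2, Cd74, H2-DMa and H2-Oa were counted 9 of 9 times. Pfkl lies near Aire on chromosome 10. Of 12 measured neighbours of Aire, 10 were higher, against 10336 of all 19593 genes. The pooled test was passed by 2 of the 12, Pfkl among them, and by 0.0612% of all genes. The other is Pwp2, a gene of ribosome biogenesis named after its values were seen, which passed at 1.14 (SE 0.10, adjusted p = 0.00264) on the knockdown alone. Its signals were 4.38, 4.63 and 4.39 in wild type, 6.56, 6.45 and 6.57 in the knockdown and 4.53, 4.78 and 4.75 in the knock-out. Aire itself, the regulator of tissue antigens in the medulla, read 9.60, 10.04 and 9.93 in wild type, 11.51, 11.44 and 11.25 in the knockdown and 9.76, 9.71 and 9.86 in the knock-out. It did not move in both, with a pooled difference of 0.73 (SE 0.12, adjusted p = 0.134) that was made of 1.54 in the knockdown and -0.08 in the knock-out.

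**Figure D3:**
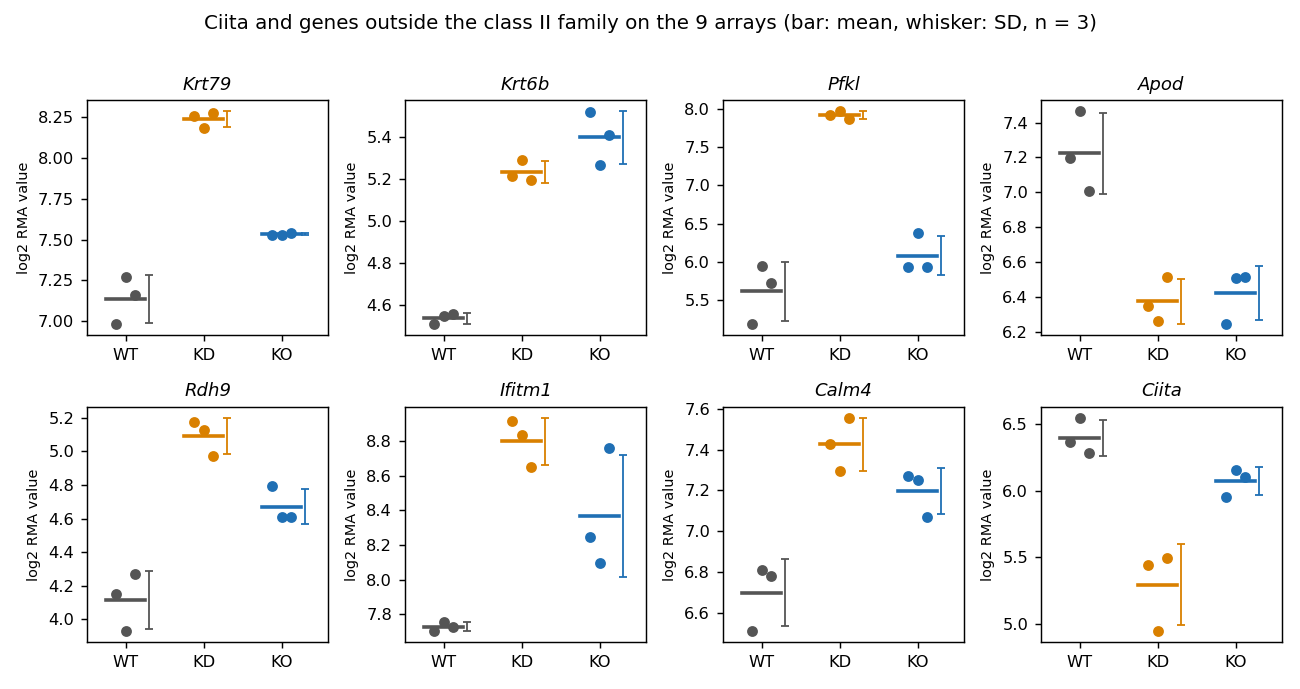
Log2 signal (y axis) on each array of the 3 genes outside the class II pathway that rose in both groups, beside Ciita, Apod, Rdh9, Ifitm1 and Calm4, which did not pass, with bars for the group means and whiskers for the SD (n = 3). Krt6b and Krt79 lie above wild type on all 6 reduced arrays, while the knock-out arrays of Pfkl overlap wild type.

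Further genes shared a direction in both groups without passing the pooled test. Apod, the lipid carrier apolipoprotein D, read 7.20, 7.47 and 7.01 in wild type, 6.35, 6.26 and 6.51 in the knockdown and 6.24, 6.51 and 6.51 in the knock-out. All reduced arrays were below wild type and both groups were at the same level, with a pooled difference of -0.82 (SE 0.13, adjusted p = 0.0884) from -0.85 and -0.80. Rdh9, a retinol dehydrogenase, read 4.15, 3.93 and 4.27 in wild type, 5.18, 5.13 and 4.97 in the knockdown and 4.79, 4.61 and 4.61 in the knock-out. All reduced arrays were above wild type, with a pooled difference of 0.76 (SE 0.11, adjusted p = 0.0566).

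All reduced arrays were above wild type for 178 genes, or 0.908% of all. Another 6 of these were picked by a low p in both single contrasts, a choice that favours such separation. They were Ifitm1, a membrane protein induced by interferon (0.85, SE 0.14, adjusted p = 0.174), Calm4, a calmodulin-like protein of skin (0.61, SE 0.11, adjusted p = 0.240), and Gc, the vitamin D binding protein made by liver (0.55, SE 0.11, adjusted p = 0.362). The phosphatase Minpp1 (0.94, SE 0.21), the actin-binding protein gene Tagln2 (0.56, SE 0.13) and the complement gene C4a (0.49, SE 0.11) each had an adjusted p of 0.556. C4a has the near-identical copy C4b, so its signal is uncertain as to gene. None of these 8 genes passed when any 1 array was left out. Ifitm1 lay between 7.70 and 7.76 in wild type, between 8.65 and 8.91 in the knockdown and between 8.10 and 8.76 in the knock-out, so its spread was widest in the knock-out.

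No gene of the class I pathway or of class II peptide processing passed the pooled test. Of 16 measured genes of MHC class I and peptide loading, 11 were higher and 5 lower, 0 passed the pooled limma test and the median was 0.07. The class I heavy chain H2-K1 differed by 0.08 (SE 0.12) and the light chain B2m by 0.04 (SE 0.16). Tap1, a subunit of the peptide transporter, had the smallest p of that list, with 0.31 (SE 0.16, adjusted p = 0.974). Of 10 lysosomal proteases and cofactors of class II processing, 5 were higher and 5 lower, with a median of -0.03. Cathepsin D, encoded by Ctsd, was the one with the smallest p, at 0.37 (SE 0.13, adjusted p = 0.974). Of 11 costimulatory and coinhibitory ligands, 9 were lower with a median of -0.14, and Tnfsf9, the ligand 4-1BBL, was at -0.60 (SE 0.26, adjusted p = 0.974). The centred median of that list was 0.44 on wild type 2, against -0.06 and 0.03 on the other wild type arrays. Its median pooled difference was -0.03 without wild type 2.

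Among epithelial lists, the 15 genes of cornified epithelium held 2 members that moved in both groups, Krt6b and Krt79. Over all genes, 0.0561% moved in both. Of the 15, 12 were higher, 8 of them in both groups, and the median was 0.23. Of all 19593 genes, 10336 were higher, 7290 of them in both groups. The list's medians in the single contrasts were 0.54 in the knockdown and 0.06 in the knock-out. Krt1, a keratin of the upper epidermis, did not pass, with a pooled difference of 1.01 (SE 0.14, adjusted p = 0.0570) that came from 1.77 in the knockdown and 0.25 in the knock-out. The remaining epithelial lists had 0 genes past the test. Their medians were -0.08 for 15 genes of mature medullary epithelium, -0.05 for 14 of immature and cortical epithelium and 0.09 for 10 of tuft cells. The smallest p among these belonged to Aire in the mature list, to Krt5, a keratin of basal and medullary cells, in the immature list (0.38, SE 0.15, adjusted p = 0.974), and to Lrmp in the tuft list (0.23, SE 0.18).

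Among antigens of other tissues, 0 passed the pooled limma test. Over all 19593 genes, 9251 were lower. Of 18 genes that depend on Aire, 14 were lower with a median of -0.15, led by the intestinal apolipoprotein gene Apoa4 at -0.52 (SE 0.11, adjusted p = 0.556). Of 12 tissue antigens that do not, 11 were lower with a median of -0.13. Apob, which encodes the main protein of low-density lipoprotein, had the smallest p of these. It read 5.32, 5.73 and 5.34 in wild type, 4.87, 4.41 and 4.69 in the knockdown and 4.75, 4.92 and 4.92 in the knock-out. All reduced arrays were below wild type, at -0.71 (SE 0.13, adjusted p = 0.336). Of 14 neuroendocrine genes, 13 were lower with a median of -0.19, and the granule protein gene Chga was at -0.53 (SE 0.13, adjusted p = 0.629), with -1.04 in the knockdown and -0.03 in the knock-out. Wild type 2 stood highest in each of these lists, with centred medians of 0.33, 0.25 and 0.37. The other wild type arrays had -0.09 to 0.06. Without wild type 2 the median pooled differences were -0.01 for the Aire-dependent, -0.09 for the Aire-independent and -0.11 for the neuroendocrine list.

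Several lists were higher on average with 0 genes past the test. Of all 19593 genes, 10336 were higher, 7290 of them in both groups. All 23 cell cycle genes had a pooled difference of 0 or more, and 19 were higher in both groups. The median was 0.35, and the medians of the single contrasts were 0.11 in the knockdown and 0.53 in the knock-out. Ccna2, the S and G2 phase cyclin A2, was at 0.62 (SE 0.17, adjusted p = 0.841). Thymocyte genes lay the same way in the knock-out. Of 18, 16 were higher, 5 of them in both groups. The pooled median was 0.15, from -0.05 in the knockdown and 0.43 in the knock-out, and Thy1 was at 0.33 (SE 0.16, adjusted p = 0.974). The centred median of the thymocyte list ranged from -0.29 to -0.07 in wild type. It ranged from -0.23 to -0.05 in the knockdown and from -0.10 to 0.70 in the knock-out. The part of thymocytes in the cell cycle values was not tested.

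Of 23 interferon response genes, 17 were higher in both groups, against 7290 of all 19593 genes. The list's median was 0.30, and Bst2, the membrane protein tetherin, had the smallest p, at 0.41 (SE 0.14, adjusted p = 0.974). Without wild type 1 the median was 0.09. Of 19 genes of oxidative phosphorylation, 18 were higher with a median of 0.21, and without wild type 1 the median was -0.07, so its sign rested on that array. The same array turned the 12 reference genes from a median of 0.09 to -0.13 and the class I list from 0.07 to -0.07. The cornified and cell cycle medians stayed positive without it, at 0.27 and 0.26, and the class II median was -2.08.

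**Figure D4:**
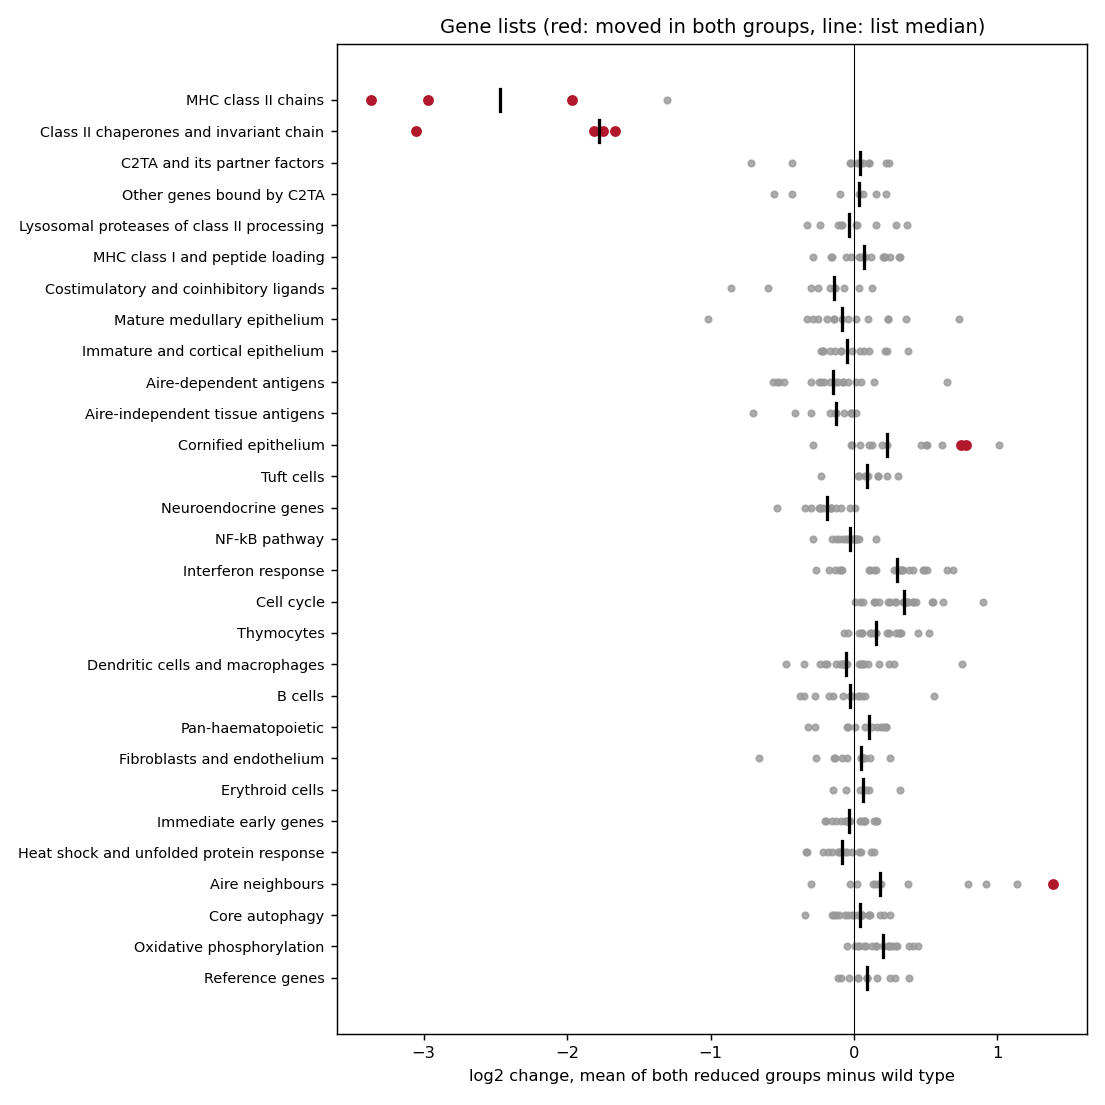
Pooled difference (log2, mean of both reduced groups minus wild type, x axis) of each gene of the 29 lists, with 1 point per gene, red where the gene moved in both groups and a vertical bar at the list's median. The medians of the class II chains, at -2.47, and of the chaperones with the invariant chain, at -1.78, lie to the left of the other medians, which run from -0.19 to 0.35.

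The other lists had medians between -0.09 and 0.18 and 0 genes moved in both groups, save Pfkl among the Aire neighbours, which had the highest median of these. The smallest p of each belonged to Traf1 in the NF-kB pathway (-0.28, SE 0.11), Herpud1 of the unfolded protein response (-0.34, SE 0.10), Atg12 of autophagy (-0.34, SE 0.12), Junb of the immediate early genes (-0.20, SE 0.12) and Rpl13a of the reference genes (0.25, SE 0.12). Among lists of other cells they were Ccr7, which guides dendritic cells into lymphatics (-0.47, SE 0.19), Pou2af1, a B cell coactivator (-0.37, SE 0.11), Dock2 of the pan-haematopoietic genes (-0.32, SE 0.14), Dcn of the fibroblast and endothelial genes (-0.66, SE 0.23) and Epor of the erythroid genes (0.32, SE 0.18). Cox4i1 of oxidative phosphorylation was at 0.30 (SE 0.17). Each of these 11 had an adjusted p of 0.861 or above.

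Of the 14016 probe sets without a gene symbol, 1 passed the pooled test and moved in both groups, or 0.00713%. Probe set 10444284 read 5.87, 7.08 and 6.76 in wild type, 3.85, 3.81 and 4.33 in the knockdown and 3.96, 3.75 and 4.20 in the knock-out. The reduced groups overlapped each other and lay below wild type, with a pooled difference of -2.59 (SE 0.26), from -2.57 and -2.60. The files and tables used here name no gene for it.

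How many genes were counted as moved in both groups depended on the arrays and on the rule. Leaving out 1 array gave from 6 genes, without wild type 3, to 21, without wild type 1. It gave 7 without knockdown 4, knockdown 6 or knock-out 9. Of the class II genes, 6 to 8 were counted in each of these fits. Without wild type 1 they were 8 of the 21. A stricter rule that asked both single contrasts to pass an adjusted p of 0.05 left 3 genes (0.0153%), H2-DMa, H2-DMb2 and H2-Oa. Adjusting the larger of both single p-values left 2 (0.0102%), both of class II. Of the 11 genes, 10 had all 6 reduced arrays on one side of wild type, which was so for 1.77% of all genes. The 11 were picked by tests on these same arrays, which favour such separation, so this is no further support. Without wild type 1, genes that joined the count included H2-Eb1 and the costimulatory ligand gene Tnfsf4, at -1.57 with an adjusted p of 0.0352, and all 11 that joined were lower in both reduced groups. The authors' deposited table gives a q-value of 0% for 9 of the 11 genes and of 3.94% for Krt6b, without stating which groups it compares. Aire, which did not move in both, also has 0%. The score comes with these same arrays, so it is no further support.

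**Figure D5:**
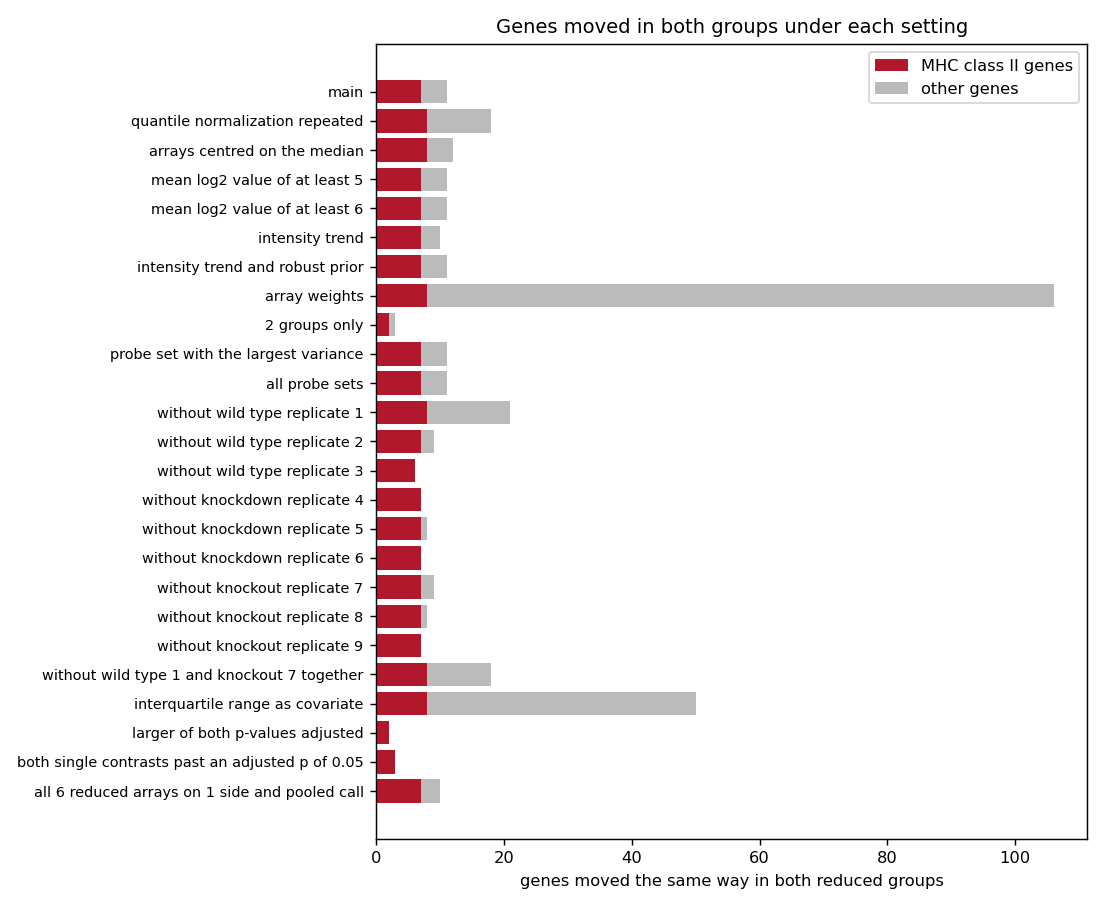
Number of genes moved in both reduced groups (x axis) under each setting, with class II genes in red and other genes in grey. The main count is 11, and it ranges from 2 when the larger of both single p-values is adjusted to 106 with array weights.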

How the data were processed

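Gene expression was measured on 9 arrays of sorted cells, and groups were taken from the sample titles. The deposited log2 values were made by the authors with RMA, per the submitters' processing notes, which corrects background, normalizes between arrays and summarises each probe set. A second deposited copy was identical for all 35552 probe sets. Deposited intensity values on a linear scale, per the file headers, and a deposited q-value score in percent were used only for description. The sources used here name no software version or annotation build.

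Of the probe sets, 21536 have 1 gene symbol and 14016 none. Symbols were updated through RefSeq GRCm38.p6 (15189 by accession, 3749 by symbol, 1261 by synonym, 1337 kept). This left 19593 genes, and the 938 with several probe sets are represented by the one of highest mean. One model with 3 group means was fitted over 9 arrays with limma 3.58.1 in R 4.3.3 (lmFit, eBayes, 6 residual degrees of freedom), with no filter on dim genes, after a test on simulated data. The pooled contrast was the mean of both reduced groups minus wild type. P-values are two-sided, adjusted by Benjamini-Hochberg over all genes, with a threshold of 0.05.

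The members and all 29 gene lists were chosen with earlier results of these data known. Named are Ciita and the class II genes, then in each direction at most 10 genes moved in both groups (filled up with genes of the same sign and the smallest larger p), and from each list its moved members or its smallest p. Of these, 1 gene is counted but not reported here. Other list members were picked as examples after their values were seen. Alternatives were a repeated quantile normalization, centring, filters on dim genes, variance models, array weights, 2 groups only, other probe sets, other rules for moved in both, the interquartile range as a covariate, and leaving out arrays.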

Additional observations from a re-analysis of the deposited data

Results flagged for a closer look

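The knockdown and the knock-out differed from each other, by limma's test of that difference, in 4 of the genes moved in both groups and in Aire. Knockdown minus knock-out was 3.94 log2 for H2-Ea, 3.05 for H2-Aa, 2.10 for H2-DMb2 and 1.84 for Pfkl. Aire, which did not move in both, had 1.62 (adjusted p = 0.00183).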

How the results depend on the processing

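The pooled count of 12 genes became 21 with a repeated quantile normalization, 119 with array weights, 3 with 2 groups only, 20 without wild type 1 and knock-out 7, and 56 with the interquartile range as covariate. The count moved in both groups, 11, became 18, 106, 3, 18 and 50 in the same order. Class II genes were 8, 8, 2, 8 and 8 of these, against 7 of the 11 in the main fit. The count became 2 when the larger of both p-values was adjusted, and 3 when both single contrasts had to pass. Leaving out 1 array gave 7 to 24 and 6 to 21 genes. The count of 4 that differed between knockdown and knock-out became 23 with array weights, 12 with the covariate and 0 of 3 with 2 groups only (limma), and 2 to 5 without 1 array. With 2 groups the spread holds the difference between knockdown and knock-out, and of the class II genes H2-DMa and H2-Oa passed. For the other settings the cause was not tested. The class II median kept its direction, from -2.08 to -1.73 in all fits. Lrmp, not past the test, turned to -0.0401 with array weights. No paired analysis was possible because the groups share no replicate numbers. Signal over background was not part of the values used, so dim genes such as H2-DMa and Btn2a2 may be compressed.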

Other observations

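Without wild type 1, 11 genes joined those moved in both groups, and each was lower with reduced C2TA. They are H2-Eb1 and Tnfsf4, given above, and Chrna5, an acetylcholine receptor subunit (-1.19, adjusted p = 0.0087), Uts2b, a peptide hormone (-0.99, adjusted p = 0.00724), Ibsp, a bone matrix protein (-0.85, adjusted p = 0.0115), Fabp4, a fatty acid binding protein of fat cells (-0.74, adjusted p = 0.0379), S100g, a calcium binding protein of the gut (-0.74, adjusted p = 0.0379), Cadps of granule release (-0.67, adjusted p = 0.0352), and Mettl11b, BC051142 and Depp1 (-0.91, -0.96 and -0.86). They were named after their values were seen, and the fit rests on 2 wild type arrays.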
